A study of Sus scrofa with 2 samples.

Results

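OXT, RLN2, PTGFR and PTGS2, the genes of a pair of luteal peptide hormones and of 2 proteins of prostaglandin signaling, were compared between the ovaries of conventional pigs and minipigs. Their probes were those whose RefSeq accession belongs to 1 of the 4 genes in the pig annotation. This gave 6 of the 43597 probes on the array, 1 for OXT (NM_001167589), 2 for RLN2 (NM_213872), 1 for PTGFR (NM_214059) and 2 for PTGS2 (NM_214321). All 4 genes had a probe, out of 2459 genes that could be named in this way. Probes listed under other kinds of accession were not named and were not used here.

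RNA came from ovarian tissue taken on day 15 of the estrous cycle, from which the corpora lutea had been cut out. Conventional pigs (Yorkshire sows) and minipigs (Midget minipigs) were sampled as females of equal stated age that had passed several cycles, with no treatment stated for either breed. Each breed was measured on 1 single-colour Agilent array, both on the same slide, and it was not stated whether an array held RNA of 1 animal or of a pool. With 1 array per breed there was no replicate check and no test was made, so every value below describes these 2 arrays.

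The direction of every difference depends on which label is followed. In the deposited table of log2 values, the column labelled minipig equals the scanner intensities of the conventional pig array up to a constant, with a largest departure of 7.46e-07 over 5613 probes printed once, and the other column equals the minipig array in the same way. All values below follow the labels of the scanner files, and "in conventional pigs" and "in minipigs" stand for the arrays so labelled. By the table's labels, 2923 of its probes are higher in conventional pigs and 2694 in minipigs, and by the scanner labels these 2 numbers change places. The direction in which the paper counts genes as up or down in conventional pigs is that of the scanner labels. Under the table's labels every direction below would turn around. Differences are log2 levels of the conventional pig array minus the minipig array, and a level is the log2 processed intensity of a probe minus the 75th percentile of its array.

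Oxytocin and relaxin are peptide hormones made by ovarian as well as other tissues. In the pig, relaxin is stored in large luteal cells during pregnancy and released before birth, where it softens the cervix, and oxytocin is made by the hypothalamus and in smaller amounts by follicles and corpora lutea. PTGS2 (cyclooxygenase-2) is the inducible enzyme that turns arachidonic acid into the precursor of all prostaglandins, and in the follicle it is induced in granulosa cells by the LH surge. PTGFR is the Gq-coupled receptor of prostaglandin F, the uterine signal that ends the life of the corpus luteum late in the cycle.

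The 2 peptide genes gave bright and nearly equal signals on both arrays, whereas the 2 prostaglandin genes differed in opposite directions. PTGFR was 5.57-fold higher in conventional pigs. PTGS2 was dim on both arrays and 3.1-fold higher in minipigs with 1 probe. With the other it was 3.67-fold higher when set against the lowest intensity well above background in conventional pigs. That intensity is the lowest of any probe so flagged, lies below the brightest negative control and is not a detection limit of this probe. Past 2-fold toward conventional pigs was 1 of the 6 probes, against 7.48% of the 38883 probes for which a difference or bound could be given. Toward minipigs 2 of the 6 were past it, both of PTGS2, against 8.94%. Counted as genes, 1 of the 4 was past 2-fold in each direction, against 11.7% of 2363 genes in conventional pigs and 7.96% in minipigs.

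**Figure D1:**
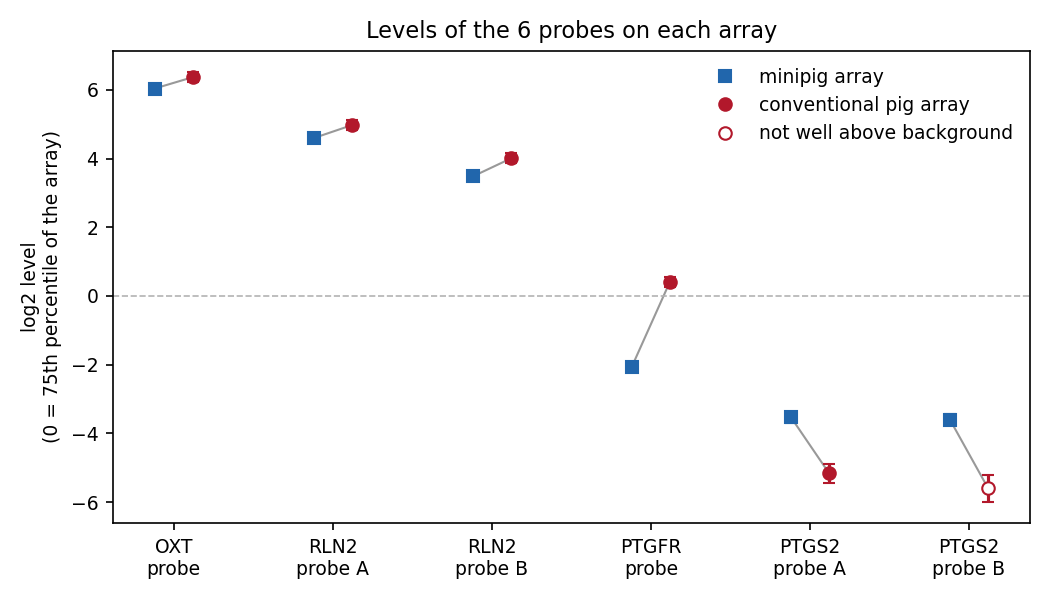
Level of each of the 6 probes (log2 processed intensity minus the 75th percentile of its array) in minipigs (squares) and in conventional pigs (circles), named by the labels of the scanner files. Each point is 1 spot, the bars are the scanner software's own error of that spot, and an open point was not well above background. OXT and RLN2 lie close together on both arrays, PTGFR rises from -2.06 to 0.41 and both PTGS2 probes are lower in conventional pigs. Levels of different probes cannot be set against each other.

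The OXT probe had a processed intensity of 32476 ± 3248 in minipigs and of 42379 ± 4238 in conventional pigs, where the error is that which the scanner software gives the spot. Both spots were well above background and carried no outlier flag. The raw signal reached 4.07% of the scanner's saturation value in minipigs and 5.63% in conventional pigs, so neither spot was saturated. As log2 levels the arrays read 6.04 and 6.37, in the same order.

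The log2 difference of OXT was 0.33, or 1.26-fold, with a software error of 0.20. Probes printed several times gave the only technical replication. Over 42 of them the SD of a difference between 2 single spots was 0.25 on the log2 scale, so OXT differed by 1.3 times this SD. Of the 38883 probes with a value, 24.5% were at least as high in conventional pigs as OXT. The difference was 0.063 after quantile normalization. OXT was therefore strongly detected in both tissues and its difference was about the size of the spread between spots, which covers spots and not animals.

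RLN2 was measured by 2 probes to the same transcript. The brighter one, called probe A here, had an intensity of 11945 ± 1195 in minipigs and of 16092 ± 1609 in conventional pigs. For probe B the intensities were 5509.8 ± 551 and 8222 ± 822 in the same order. All 4 spots were well above background and both probes were higher in conventional pigs.

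The log2 difference of RLN2 was 0.38 with probe A and 0.52 with probe B, each with a software error of 0.20. These are 1.3-fold and 1.44-fold, or 1.48 and 2.07 times the SD between spots. The median of both probes was 0.45, and 676 of the 2363 genes were at least as high in conventional pigs. After quantile normalization probe A read -0.013 and probe B 0.14, so the direction of probe A turned under that scaling. As for OXT, the signal was present in ovaries of both breeds and no 2-fold difference was seen.

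PTGFR, the prostaglandin F receptor, had an intensity of 118 ± 12.3 in minipigs and of 684 ± 68.4 in conventional pigs. The raw median signals were 134 and 617.5, over local backgrounds of 24 and 26. Both spots were well above background without an outlier flag. The receptor signal was thus weak but clearly measured in minipigs and several times stronger on the other.

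The log2 difference of PTGFR was 2.48, with a software error of 0.21, which is 9.76 times the SD between spots. That SD covers spots and not animals, and it was not matched to the intensity of PTGFR. A difference at least as large toward the conventional pig array was seen in 303 probes (0.779%) and in 40 of the 2363 genes. The 24 spots that surround it on the slide had a median log2 difference of -0.29, with a highest value of 0.81, so its neighbours were not raised. PTGFR has 1 probe here, and no second probe can show whether other transcripts of the gene moved alike.

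PTGS2 lay near the lower end of what the arrays measured. Its brighter probe, A, had an intensity of 42.9 ± 4.77 in minipigs and of 14.4 ± 2.79 in conventional pigs. Probe B had intensities of 40.8 ± 4.80 and 10.6 ± 2.88. The lowest intensity well above background was 10.6 in minipigs and 11.5 in conventional pigs. The 153 negative control spots had medians of 2.66 and 2.86 and 95th percentiles of 3.98 and 3.43, in the same order. Both PTGS2 probes therefore lay above the 95th percentile of the negative controls on both arrays, while probe B was not well above background in conventional pigs. The brightest negative control had 24.4 in minipigs, below both probes, and 27.9 in conventional pigs, above both.

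The log2 difference of PTGS2 was -1.63 with probe A, with a software error of 0.32, or 6.43 times the SD between spots. That SD of 0.25 was not matched to the low intensity of PTGS2, and the software error of probe A is larger than it. For probe B, the comparison with the lowest intensity well above background gave a bound of -1.88, and the difference as measured was -2.0 with a software error of 0.43. Differences as large toward the minipig array were seen in 2.84% of probes for A and in 1.89% for B, and in 53 of the 2363 genes for the median of both probes. With normexp background correction, which adds an offset of 50 to every spot, probe A read -0.60 and probe B -0.55, so that neither was past 2-fold. The 2 probes lay in different places on the array and pointed the same way.

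**Figure D2:**
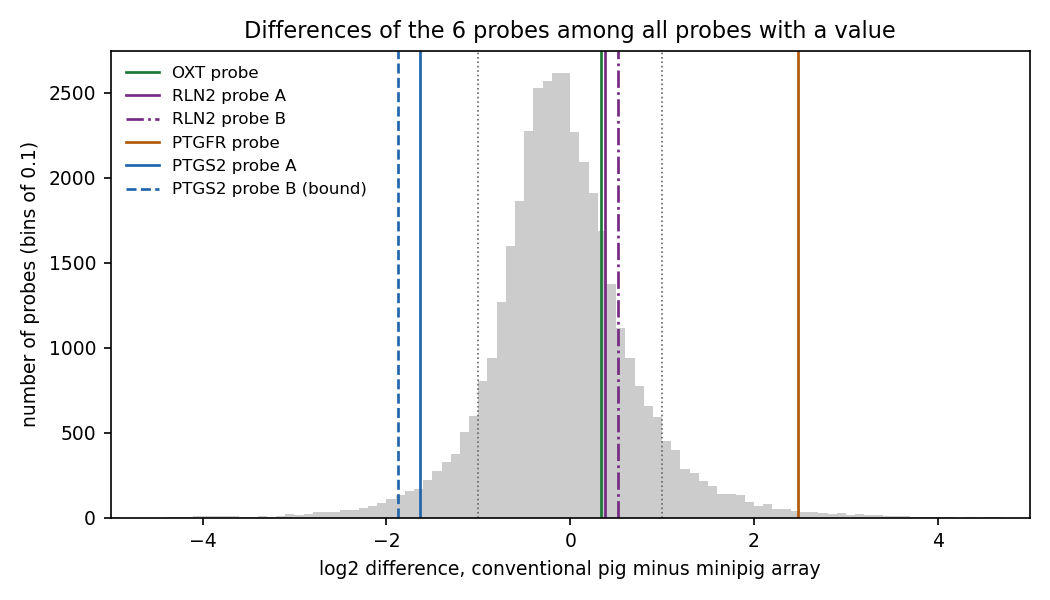
Number of probes (vertical axis, bins of 0.1) by log2 difference, conventional pig minus minipig array by the scanner labels, for 38883 probes. Values beyond 5 either way are counted in the end bins, dotted lines mark 2-fold, and coloured lines mark the 6 probes, with the bound of PTGS2 probe B dashed. OXT and both RLN2 probes (0.33 to 0.52) lie in the body of the distribution, PTGFR (2.48) in its right tail and PTGS2 (-1.63 and -1.88) in its left tail.

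Genes with known roles around these 4 were taken from 7 lists, which were chosen with earlier results of these data known. The lists name 74 further genes, of which 35 had a value. Among these, 9 were at least 2-fold higher in conventional pigs, 6 were at least 2-fold higher in minipigs and 20 lay within 2-fold. Over all 2363 genes the shares past 2-fold were 11.7% and 7.96%, in the same order. The median log2 difference was 0.22, against 0.04 over all 2363 genes. The other 39 had no value, so the lists describe the genes measured and not whole pathways.

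For the peptide hormones, their receptors and the enzymes that process them, 7 of 13 genes had a value, with a median log2 difference of 0.33. OXTR, which encodes the oxytocin receptor, had a level of -3.07 in minipigs and of 1.74 in conventional pigs. This is a difference of 4.81, or 28.0-fold, from 1 probe well above background on both arrays. The ligand differed 1.26-fold on the same 2 arrays.

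PCSK1, a convertase that cuts prohormones, was the other gene past 2-fold, at 1.69. Its 2 values were bounds of 0.75 and 2.63, since neither probe was well above background in minipigs, and its remaining probe was too dim on both arrays to give a value. PCSK2, a related convertase, was the lowest of the list at -0.59. AVP, the vasopressin gene that lies near OXT in the annotation, was named after its value was seen, with levels of -4.45 in minipigs and -4.53 in conventional pigs. The relaxin receptor genes RXFP1 and RXFP2 had no probe named by accession and were not analysed here.

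Of the 16 genes of prostanoid synthesis, 10 had a value and their median log2 difference was 0.05, with 5 higher on each array. PTGES, the terminal synthase of prostaglandin E, had levels of 4.55 in minipigs and 6.58 in conventional pigs. Its 2 probes gave differences of 1.79 and 2.25. AKR1B1, an aldo-keto reductase that can form prostaglandin F, was higher on the same array, with differences of 1.90 and 2.01. PTGES and AKR1B1 thus differed in the direction opposite to that of PTGS2. Of the other synthases listed, PTGES2, PTGES3 and PTGDS, named after their values were seen, lay within 2-fold at 0.42, -0.02 and -0.03.

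In minipigs, CBR1 and TBXAS1 were past 2-fold along with PTGS2. CBR1, a carbonyl reductase that converts prostaglandin E to F, had a difference of -1.49 from 1 probe. TBXAS1, the thromboxane synthase gene, had a difference of -1.75 from 1 probe, and its remaining probe stayed dim on both arrays. Both enzymes were well above background on both arrays with the probes that gave these values.

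PTGS1, the constitutive cyclooxygenase, and AKR1CL1, a prostaglandin F synthase of the pig, were named after their values were seen. PTGS1 differed by 0.11 on the log2 scale, from 1 probe, while the inducible isoform was past 2-fold. AKR1CL1 had levels of 7.46 in minipigs and 7.74 in conventional pigs, and its 3 probes differed by 0.24 to 0.41. Members of the aldo-keto reductase family have closely similar transcripts, and binding of the probes to more than 1 of them was not tested.

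Few genes of prostanoid handling and reception could be measured. Among inactivation and transport, SLCO2A1, the prostaglandin transporter, had a median difference of 0.65 from probes at 0.16 and 1.15, and PTGR1 had 0.22. Neither of the 2 was past 2-fold, out of 5 genes listed. Of 9 prostanoid receptors, PTGFR and PTGER3 had a value. PTGER3, a receptor of prostaglandin E, had differences of -0.61 and -0.52, so the 2 receptors lay on opposite sides and only PTGFR was past 2-fold.

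PTGFR and OXTR both signal through Gq to phospholipase C and calcium. Of 13 genes for these steps, GNAQ and GNA11 had a value, at -0.44 and 0.19. Neither Gq subunit was past 2-fold. The phospholipase C, inositol trisphosphate receptor and protein kinase C genes listed had no probe named by accession.

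**Figure D3:**
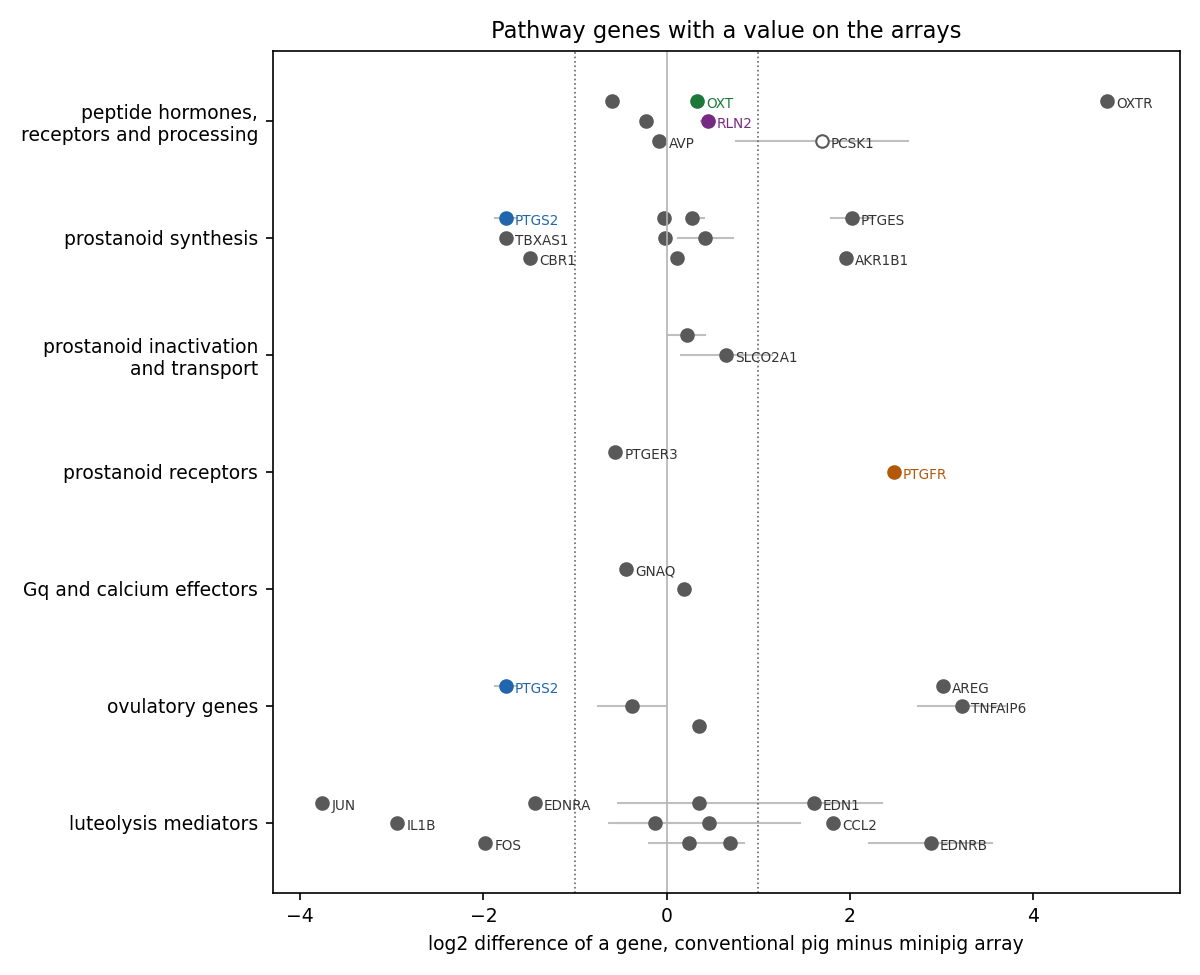
Log2 difference of each pathway gene with a value (horizontal axis, conventional pig minus minipig array by the scanner labels), in 7 lists. Points are medians over the probes of a gene, open where all its values are bounds, grey lines run from its lowest to its highest probe, dotted lines mark 2-fold, and points are spread vertically for legibility. OXTR (4.81), PTGFR (2.48), PTGES (2.02) and AKR1B1 (1.96) stand to the right, PTGS2, TBXAS1 and CBR1 to the left, and OXT and RLN2 near the middle.

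PTGS2 belongs to a group of genes that the LH surge induces in the follicle before ovulation. Of 9 such genes, 5 had a value, with a median log2 difference of 0.36. TNFAIP6, a hyaluronan-binding protein of the expanding cumulus, had probes at 2.75 and 3.70, and AREG, an EGF-like ligand, had probes at 3.0 and 3.02. Both were higher in conventional pigs, opposite to PTGS2. PGR, the progesterone receptor, had a difference of 0.36, and ADAMTS1, a protease of the ovulating follicle, had probes at -0.75 and -0.01.

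Mediators of luteal regression differed in both directions. Of 14 genes, 12 had a value, and 3 were at least 2-fold higher in conventional pigs and 4 in minipigs. Over all 2363 genes the shares were 11.7% and 7.96%, in the same order. EDNRB, an endothelin receptor, had probes at 2.21 and 3.55. CCL2, a chemokine named after its value was seen, had probes at 1.77 and 1.86. JUN and FOS, immediate early transcription factors, had differences of -3.76 and -1.98, and IL1B, an inflammatory cytokine, had -2.94, each from 1 probe. EDN1, which encodes endothelin and was named after its value was seen with EDNRA, had a difference of 1.60, while its other receptor EDNRA had -1.44. Genes of this list therefore did not share 1 direction, and their median log2 difference was 0.30.

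Markers of ovarian cell types also differed between the 2 arrays, in both directions. All 7 luteal markers had a value, and 5 were at least 2-fold higher in conventional pigs, against 11.7% of all 2363 genes. Their summed level, in multiples of the array's 75th percentile, was 114 in minipigs and 404 in conventional pigs. STAR, which brings cholesterol into mitochondria, had a difference of 3.07, and LHCGR, the LH receptor, had -0.62. The higher PTGFR signal was found on the array with the higher summed level of luteal markers. OXT and RLN2, whose probes were bright on both arrays, differed less than 2-fold. Steroid synthesis genes listed as granulosa or theca markers were not 2-fold higher in conventional pigs: CYP17A1 had -1.74, HSD17B1 -2.96 and CYP19A1 0.09. CYP11A1 and HSD3B1, which also serve steroid synthesis, were listed as luteal markers and had 2.63 and 3.11. This contrast therefore depends on the list to which a gene was assigned, and the cells that gave these signals were not tested.

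Most granulosa markers with a value were higher in minipigs, as was PTGS2. Of 10 listed, 7 had a value and 5 of these were at least 2-fold higher in minipigs, with a summed level of 48.5 there and of 23.2 in conventional pigs. Among these 5, the 2 probes of INHBA lay on opposite sides, at -3.91 and 0.37. The 4 probes of AMH ran from -2.22 to -0.09. FSHR, the FSH receptor, had a difference of -3.63, whereas CYP19A1, aromatase, had 0.09. At least 2-fold higher in minipigs were also 2 of 3 theca markers, 4 of 7 oocyte markers and 2 of 3 smooth muscle markers with a value. These counts too stand against 7.96% of all genes. CYP17A1, 1 of the theca markers counted, had probes at -2.49 and -0.99. Of 3 endothelium markers 0 were past 2-fold, and of 4 leukocyte markers 1 was, CD14, toward conventional pigs. A summed level is dominated by the brightest probes of its list. Theca markers summed to 82.5 in minipigs and 12 in conventional pigs, and without INSL3 to 10.5 and 6.71. Oocyte markers summed to 14.0 and 4.31, and without KIT to 3.76 and 1.55. Smooth muscle markers summed to 88.3 and 73.1, and without ACTA2 to 28.2 and 8.99. Endothelium markers summed to 4.39 and 7.04 and leukocyte markers to 3.93 and 4.41, in the same order of breeds. No marker with a value was at 0, and CD4 stayed too dim on both arrays to give one. The part of these cell types in the differences of PTGFR and PTGS2 was not tested, and in bulk tissue fewer cells of a type and less RNA per cell cannot be told apart.

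**Figure D4:**
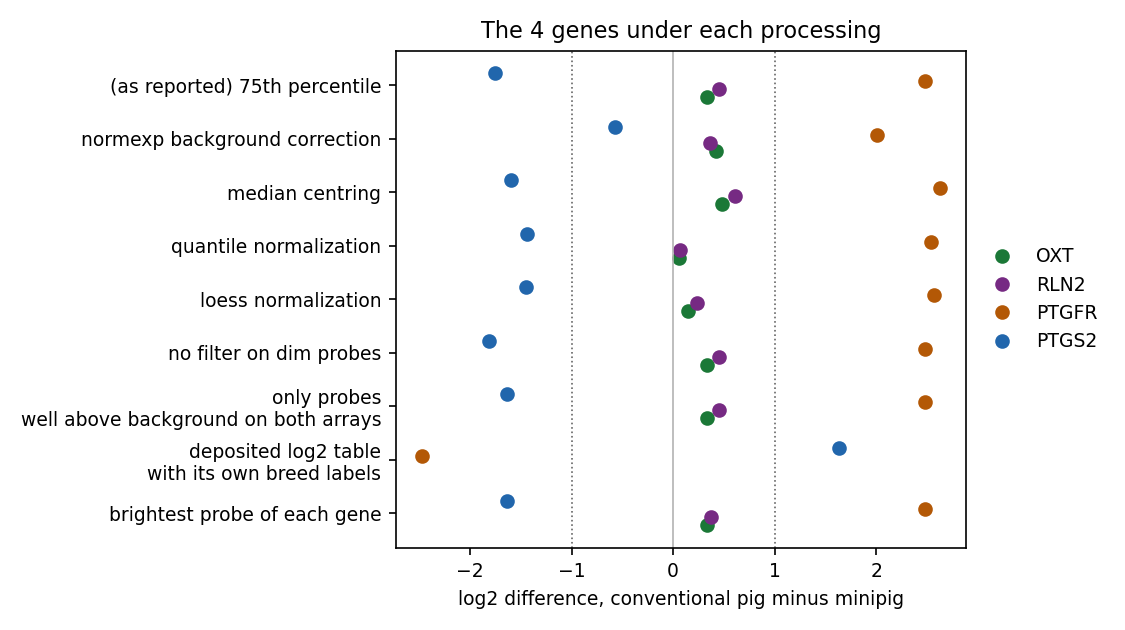
Log2 difference of the 4 genes (horizontal axis, conventional pig minus minipig) under each processing of the arrays and in the deposited table, with dotted lines at 2-fold. PTGFR stays between 2.0 and 2.63 and PTGS2 between -1.82 and -0.57 on the scanner labels, PTGS2 being within 2-fold with normexp correction, OXT and RLN2 stay within 2-fold, and the deposited table, which lists PTGFR and 1 PTGS2 probe, gives the opposite signs.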

How the data were processed

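RNA from ovarian tissue was hybridised to 1 array per breed of a porcine Agilent chip, and the authors extracted spots with Agilent Feature Extraction 10.7.3.1, as the submitters' processing notes state. In the deposited intensity the software has removed each spot's background and spatial trend, and the 2 arrays were not put on a common scale. The authors also deposited log2 values for 5617 probes, all at least 2-fold apart, a cutoff that the paper also uses. For normalization the paper names GeneSpring software without a method. Each deposited column differs from the processed intensities of 1 array by a constant.

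Control spots and outlier-flagged spots (10 on the conventional pig array, 5 on the minipig array) were left out, repeated spots were averaged as log2, and the 75th percentile of each array was taken off. Probes were well above background in 85.2% and 88.1% of cases, respectively. Where only 1 array was, its level was set against the higher of the dim array's lowest level so flagged and the probe's own, as a bound. Genes take the median of their probes, including bounds. Accessions without versions were looked up in the RefSeq table of Sscrofa11.1, which named 5577 probes; no coordinates were taken, as the files name no build. Members and gene lists were chosen with earlier results of these data known. Text names the 4 genes, list genes past 2-fold or most extreme (at most 4 a list) and, for the 3 genes measured on both arrays with all probes, the 3 genes of nearest difference. No p-value was computed with 1 array per breed, and the number of arrays limits the precision. Alternatives were normexp (offset 50) on median signals, median centring, quantile and loess (span 0.3) normalization, 2 filters on dim probes, the deposited table and the brightest probe of a gene. Python 3.11.15, statsmodels 0.14.6 and limma 3.58.1 were used, and the steps were tested on simulated data.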

Additional observations from a re-analysis of the deposited data

How the results depend on the processing

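On the scanner labels, OXT and RLN2 stayed within 2-fold and PTGFR past 2-fold under median centring, quantile and loess normalization, normexp correction, both filters on dim probes and the brightest probe of each gene. Quantile normalization took OXT to 0.063, RLN2 to 0.064 (probes -0.013 and 0.14) and the median of the peptide hormone list to 0.064. Normexp correction took PTGFR to 2.0 and PTGS2 to -0.57 (probes A and B at -0.60 and -0.55), which ends the 2-fold difference of PTGS2; its offset of 50 exceeds the PTGS2 intensities. PTGS2 was -1.44 (-1.33 and -1.55) after quantile and -1.45 (-1.35 and -1.55) after loess normalization. Under its own breed labels the deposited log2 table gave -2.48 for PTGFR and 1.64 for PTGS2 from probe A, and it lists no probe of OXT or RLN2. Normexp correction lowered the number of probes past 2-fold toward minipigs from 3475 to 1411. Of all 2-fold probes, 45.6% were higher on the conventional pig array, against 59.8% after median centring and 58.9% after normexp correction. Median centring moved the median of all probes by 0.15, quantile and loess normalization by 0.11. In an alternative chosen after seeing the data, 7 to 9 of the pathway genes were past 2-fold on the conventional pig array and 5 to 6 on the minipig array, against 9 and 6. The dim PTGS2 signals are limited by background. No paired analysis was possible because each breed has 1 array.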

Other observations

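With 2 arrays, the likeness of a gene to OXT, RLN2 or PTGFR can be measured only as the distance between their log2 differences. Among 1160 genes with at least 2 probes, all well above background on both arrays, the 3 nearest to PTGFR were ATP1B1 (2.48), a sodium pump subunit, S1PR5 (2.47), a sphingosine phosphate receptor, and SCARB1 (2.46), the receptor that takes up cholesterol from HDL. The nearest to OXT were LRRK2 (0.33), COL5A2 (0.33) and CYP4A24 (0.33), and the nearest to RLN2 were NIP7 (0.45), LOC100157017 (0.45) and MGAT1 (0.45). Probes of 1 gene spread far more than these distances, for S1PR5 from 1.67 to 2.92.

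In the annotation, the genes closest to the 4 had few probes that could be named. Near RLN2, JAK2, a kinase of cytokine receptors, had a log2 difference of 1.0 (conventional pig minus minipig array) and CD274, an immune checkpoint ligand, had 0.30. The annotation places PLA2G4A, the phospholipase that releases arachidonic acid, next to PTGS2, and it had no probe named by accession. The 13 spots that surround PTGS2 probe A on the slide had a median log2 difference of -0.48, and the 24 that surround probe B one of -0.19.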
